A study of Xenopus laevis with 6 samples.

Results

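Genes that build the coat of lipid droplets or activate, lengthen, store, release and burn fatty acids were compared between the animal and vegetal ends of the 8-cell embryo of the frog *Xenopus laevis*. They were chosen by symbol, as genes whose annotated name starts with plin, acot, acsl, acad, elovl, fads, agpat, dgat, hadh, cpt or acox followed by a digit or letter. The rule found 42 genes, read by 55 probe sets, among the 11303 genes with a single symbol on the array. Of these, 36 were bright enough to be tested. The rule does not read function: *cptp.L*, which it picked up through its letters, encodes a ceramide-1-phosphate transfer protein, and *hadh.L*, an oxidation enzyme whose symbol has nothing after the prefix, lies outside it.

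Animal blastomeres made up 3 of the samples. The other 3 came from vegetal blastomeres cut further, of which the vegetal-most piece was kept and the equatorial piece thrown out. All 6 came from embryos of natural matings, induced with hormone, of 2 pairs of adults, and all had been freed of jelly and fixed in 98% ethanol and 2% acetic acid before dissection. No genotype or strain is given in the labels. The labels also do not say whether the 3 samples of a group came from separate clutches or dissections. The p-values below therefore rest on the spread between these samples, which may be technical. For p-values from limma, the linear model used below, that spread is partly pooled over all probe sets or pairs fitted. The embryo's own genome is still largely silent at this stage, so the RNA measured is RNA laid down in the egg.

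The egg carries its food as yolk platelets and as lipid droplets, which are cores of triglyceride and cholesteryl ester under a single layer of phospholipid coated with perilipins. Acyl-CoA synthetases attach coenzyme A to a fatty acid and so commit it to metabolism. The acyl-CoA can be lengthened by elongases, given double bonds by desaturases, joined to glycerol by acyltransferases, split again by thioesterases, or carried into mitochondria by the carnitine palmitoyltransferases and shortened by beta-oxidation. *plin2*, the perilipin found on droplets of most cell types, is also listed in RefSeq under the synonym fatvg, the name under which its RNA is known in *Xenopus* as a localized RNA of the vegetal cortex.

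Each value below is the deposited intensity of a probe set, which the authors had scaled so that every array had the same trimmed mean, 150.03 to 150.04. An intensity is therefore relative to the rest of the RNA in that sample, and in such bulk samples fewer cells of a type and less RNA per cell cannot be told apart. Markers of the poles followed the labels. The 5 animal pole genes on the array (from *foxi2*, *dand5*, *grhl1* and *pou5f3.3*) were all higher in animal samples, where their summed intensity was 4958 to 5739, against 2397 to 2682 in vegetal samples. The 7 vegetal pole genes (from *nanos1*, *dazl*, *vegt*, *gdf1*, *wnt11b* and *trim36*) were all higher in vegetal samples, with sums of 1867 to 2236 in animal and 18973 to 23268 in vegetal samples. Markers of follicle cells, blood and the later embryo were too dim to test: 3 of 4, 5 of 7 and 7 of 10 genes on the array were at or under the brightest unspiked control probe set on every array. Their sums were 3.2 to 6.4 in animal and 2.1 to 7.8 in vegetal samples for follicle cells, 10.3 to 19.6 in animal and 11.1 to 20.1 in vegetal samples for blood, and 10.2 to 23.4 in animal and 12.7 to 17.6 in vegetal samples for the later embryo. The ratio of the 3′ to the 5′ control probe set of gapdh, a measure of RNA integrity and of how far amplification reached, was 3.96 to 4.31 in animal and 6.96 to 7.77 in vegetal samples (exact permutation test, two-sided p = 0.1, the smallest that 3 against 3 arrays allow). For actin, the 3′ control over the middle one was 7.02 to 7.93 in animal and 11.7 to 14.7 in vegetal samples. These ratios move with every comparison below, and their part in it was not tested.

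The genes split in both directions, and with the deposited scaling more of the differences of 2-fold or more lay toward the vegetal side. With limma and Benjamini-Hochberg adjustment over all 19523 probe sets tested, at a threshold of 0.05, 23 of the 36 tested genes differed (63.9%, against 50.9% of all 8026 genes tested). Of these, 10 were higher in animal samples (27.8%, against 27.1% of all genes tested) and 13 in vegetal samples (36.1%, against 23.7%). Differences of 2-fold or more were found for 2 genes toward the animal side (5.56%, against 7.95%) and 8 toward the vegetal side (22.2%, against 6.57%). The groups did not overlap for 28 genes (77.8%, against 58.3%). The median log2 difference, animal minus vegetal, was -0.14 over the 36 genes and 0.03 over all genes tested. *fads2.L* and *acot2.S* reached the test only through the group in which they were high, so these counts are descriptions. Scaling moved both splits. Centring each array on its median gave 8 genes higher in animal and 20 in vegetal samples, quantile normalization 10 in animal and 16 in vegetal samples, and scaling to the spiked controls 11 in animal and 9 in vegetal samples. At 2-fold or more, median centring left 1 gene on the animal and 11 on the vegetal side, quantile normalization 2 animal and 9 vegetal, and scaling to the spiked controls 6 animal and 7 vegetal. Over all genes, the shares at 2-fold or more were then 4.72% animal and 10.3% vegetal, 5.92% animal and 8.12% vegetal, and 12.6% animal and 4.7% vegetal. The same 3 scalings put the share of animal calls among all called genes at 26.7%, 48.6% and 77.2%, against 53.3% with the deposited scaling.

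**Figure D1:**
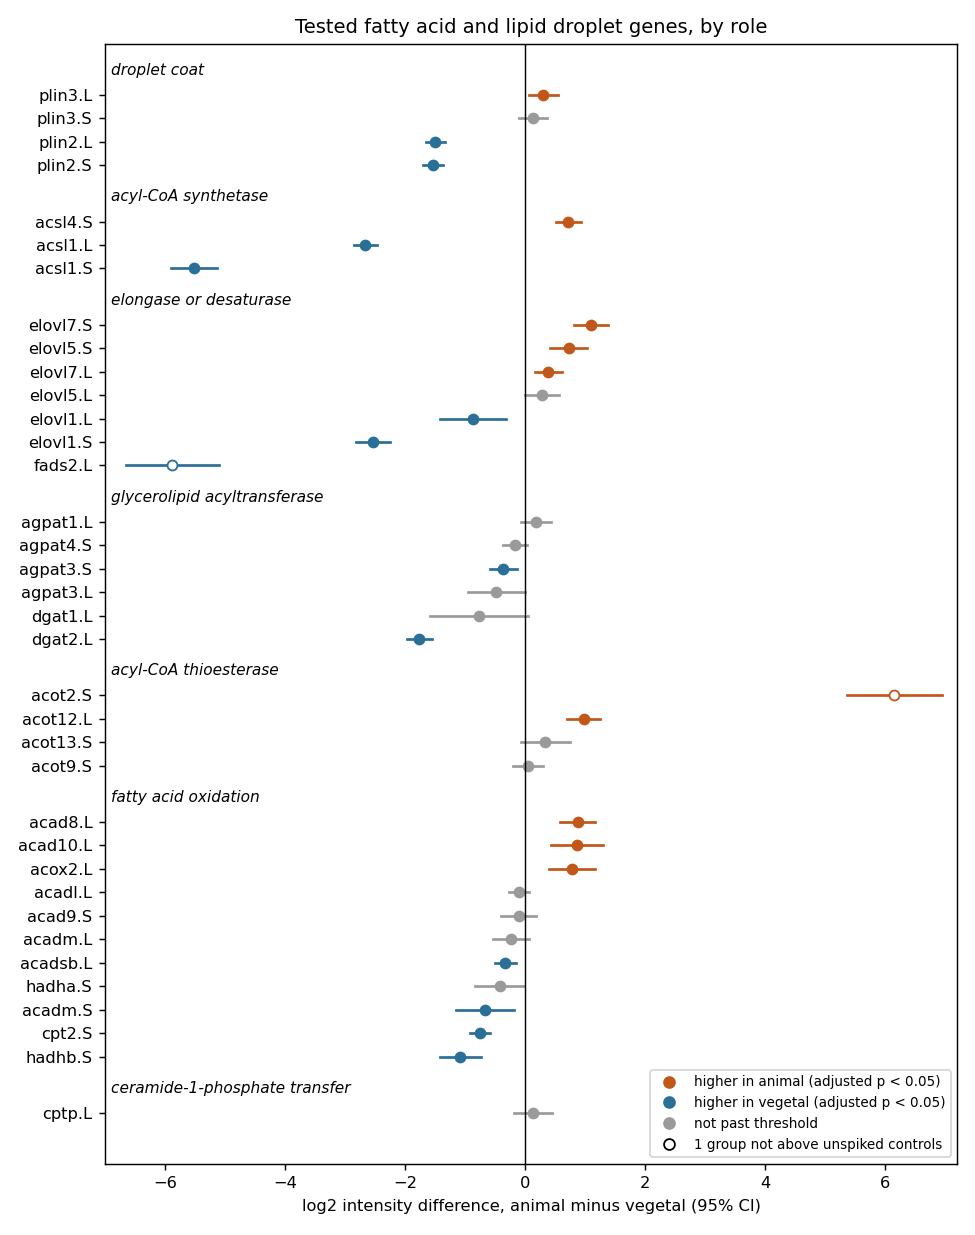
Log2 difference (animal minus vegetal intensity) of the 36 tested lipid genes, grouped by role, with 95% confidence intervals from limma that are not adjusted for the number of tests. Points right of 0 are higher in animal samples and points left of 0 in vegetal samples. With the deposited scaling the 8 vegetal differences of 2-fold or more spread over 5 roles, while *acot2.S* lies alone at the far animal side. The positions and intervals of *acot2.S* and *fads2.L* (open points) depend on values at control level, set to 1 where lower. Their differences are known only as bounds, of at least 16.1-fold and 12.0-fold.

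The droplet coat gene *plin2* was higher in vegetal samples by both homeologs, the L and S copies that stem from the genome doubling of the species. The brightest *plin2.L* probe set read 1203, 1208 and 1150.3 in animal samples, against 3549.9, 3038 and 3489.7 in vegetal samples. The *plin2.S* probe set read 700.8, 691.6 and 659.2 in animal samples, against 1985, 1834 and 2137 in vegetal samples. All vegetal arrays lay far above all animal arrays, with fold differences of 2.82 (95% interval 2.52 to 3.16, adjusted p by limma = 4.72e-10) for *plin2.L* and 2.90 (2.58 to 3.25, adjusted p = 4.8e-10) for *plin2.S*. The homeologs' log2 differences of -1.50 and -1.53 were 0.04 apart, with an interval of -0.20 to 0.27 (adjusted p by limma = 0.780). Among the 7691 genes measured above the control probe sets on all arrays, *plin2.S* and *plin2.L* ranked 211 and 228 from the vegetal end.

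The other 2 probe sets of *plin2.L* disagreed with each other. Probe set 2 read 484.1, 484.4 and 490.9 in animal samples, against 2097, 1637 and 1569 in vegetal samples, a 3.60-fold vegetal excess (3.11 to 4.17, adjusted p by limma = 8.64e-10). Probe set 3 read 334.3, 275.1 and 296.7 in animal samples, against 213.1, 216.6 and 196.7 in vegetal samples. It was thus 1.44-fold higher in animal samples (1.23 to 1.69, adjusted p by limma = 0.000687), again with no overlap, and it stayed past the threshold in the animal direction under every other scaling, filter, offset and variance setting tried, with a replicate block, and on leaving out each array. Probe sets 2 and 3 were designed on the same accession and differ only in the suffix of their names. Within an array, the log2 gap between them was 0.69 ± 0.14 in animal and 3.07 ± 0.20 in vegetal samples (SD, n = 3 each, exact permutation p = 0.1, the smallest possible, and 0.1 after adjustment over the 3 gaps compared). The gap between probe sets 1 and 3 was 1.98 ± 0.15 in animal and 4.01 ± 0.18 in vegetal samples, and that between probe sets 1 and 2 was 1.29 ± 0.05 in animal and 0.93 ± 0.20 in vegetal samples. The 3′ to 5′ control ratios also differed between the groups, and their part in this disagreement was not tested.

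The remaining perilipins did not share the vegetal excess. *plin3.L*, whose protein moves between cytosol and droplets in mammals, read 676.9, 509.6 and 531.8 in animal samples, against 480.0, 495.5 and 412.4 in vegetal samples. Its 1.23-fold animal excess (adjusted p by limma = 0.0352) was small and rested on single arrays: the adjusted p was 0.191 without animal replicate 1 and 0.141 without vegetal replicate 3. It was also lost under median centring (0.824), with no filter (0.177) and with no mean-variance trend (0.134). *plin3.S* read 285.4, 239.7 and 246.3 in animal samples, against 241.3, 248.4 and 211.4 in vegetal samples, groups that overlap (log2 difference 0.14, adjusted p = 0.314). The log2 differences of the *plin3* homeologs were 0.16 apart (-0.08 to 0.41, adjusted p = 0.246). *plin1.L*, the perilipin of fat cells, was under the filter, with no array above 10.

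**Figure D2:**
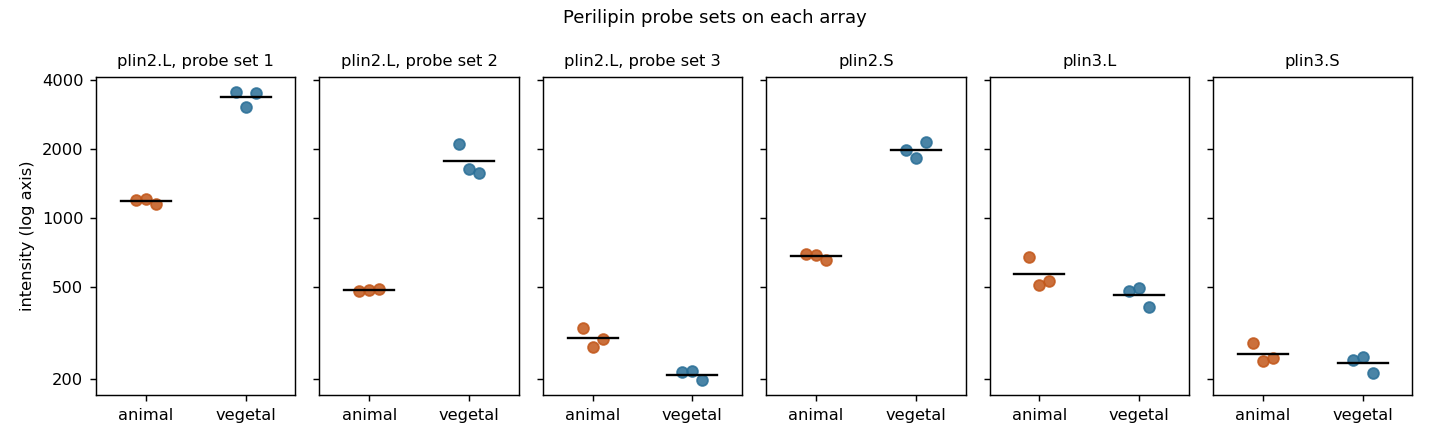
Intensity (log axis) of the tested perilipin probe sets on each of 3 animal and 3 vegetal arrays, with a bar at each group's mean. Vegetal arrays lie above animal arrays for *plin2.S* and for probe sets 1 and 2 of *plin2.L*, below them for probe set 3, and close to them for *plin3.L* and *plin3.S*.

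Acyl-CoA synthetases lay on both sides, *acsl1* on the vegetal and *acsl4* on the animal one. *acsl1*, which activates long-chain fatty acids, was higher in vegetal samples by both homeologs. *acsl1.S* read 20.4, 13.3 and 11.9 in animal samples, against 669.5, 700.6 and 652.1 in vegetal samples, a 45.6-fold vegetal excess (34.9 to 59.5, adjusted p by limma = 4.67e-12) that ranked 9 from the vegetal end of the 7691 ranked genes and was 22.3-fold with an offset of 16 added before log2 in place of the floor. *acsl1.L* read 587.9, 514.4 and 502.9 in animal samples, against 3621, 3002 and 3539 in vegetal samples, a 6.32-fold excess (5.54 to 7.22, adjusted p = 5.69e-12, rank 73). Both pairs of groups were far apart. At the animal end the *acsl1.S* probe set fell close to the control probe sets. The *acsl1.L* probe set was the brighter at both ends, and levels of different probe sets do not compare amounts of RNA.

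*acsl4.S*, from a synthetase with a preference for arachidonic acid, went the other way. It read 386.4, 384.7 and 342.4 in animal samples, against 223.2, 236.4 and 217.6 in vegetal samples, a 1.64-fold animal excess (1.42 to 1.90, adjusted p by limma = 2.04e-05). Its 3 further probe sets were also higher in animal samples, by log2 0.98, 0.51 and 1.15 (adjusted p = 6.34e-05, 0.0408 and 0.000733). All 4 of its probe sets therefore stood on the animal side.

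Elongases and the desaturase made up 7 of the tested genes. Their calls split evenly, 3 toward the animal side and 3 toward the vegetal side. Over all genes tested, the shares called were 27.1% on the animal side and 23.7% on the vegetal side. The vegetal calls of *fads2.L* and *elovl1.L* and the animal call of *elovl7.L* carry limits given below, so this split is a description. *fads2.L*, a front-end desaturase on the path to polyunsaturated fatty acids, read 0.6, 0.2 and 0.4 in animal samples, against 58.0, 61.3 and 57.2 in vegetal samples. Its animal values lie under the brightest unspiked control of each array, so the vegetal excess is given as a bound of at least 12.0-fold (adjusted p by limma = 4.26e-09), and the fit with an offset of 16, which shrinks differences of dim genes, gave 4.56-fold. All its animal values were set to 1 before log2, and it reached the test only through the vegetal group, so its p-value is a description. *fads2.S* was under the filter. *elovl1.S*, an elongase of saturated and monounsaturated very-long-chain fatty acids, read 164.7, 144.7 and 108.4 in animal samples, against 786.5, 838.5 and 765.2 in vegetal samples, a 5.80-fold vegetal excess (4.79 to 7.03, adjusted p = 5.04e-10, rank 83). Its homeolog *elovl1.L* was dim, at 18.7, 17.7 and 12.8 in animal samples, against 31.8, 25.7 and 31.8 in vegetal samples, and was 1.83-fold higher in vegetal samples (1.25 to 2.69, adjusted p = 0.011). It did not hold without animal replicate 3 (log2 difference -0.70, adjusted p = 0.0505) and under scaling to the spiked controls (adjusted p = 0.0928).

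The other elongases leaned to the animal side. *elovl7.S*, an elongase of the same substrate class as *elovl1*, read 339.0, 352.5 and 294.7 in animal samples, against 124.3, 172.4 and 169.5 in vegetal samples, a 2.13-fold animal excess (1.75 to 2.60, adjusted p by limma = 6.91e-06). *elovl7.L* had a smaller excess in the same direction, with 200.97 ± 6.13 in animal and 153.9 ± 4.83 in vegetal samples (SD, n = 3 each, 1.31-fold, adjusted p = 0.00707), which was lost under median centring (adjusted p = 0.372). *elovl5.S*, an elongase of polyunsaturated fatty acids, read 142.8, 142.8 and 152.1 in animal samples, against 106.7, 78.3 and 82.2 in vegetal samples, a 1.65-fold animal excess (adjusted p = 0.000634). *elovl5.L* read 244.9, 230.0 and 232.2 in animal samples, against 239.6, 184.5 and 164.3 in vegetal samples. It did not pass (log2 difference 0.28, adjusted p = 0.0831), with 1 vegetal array inside the animal range. It passed without vegetal replicate 1 (0.44, adjusted p = 0.00538) and under scaling to the spiked controls (0.52, adjusted p = 0.0327). *elovl2.L* was under the filter.

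By their brightest probe sets, the glycerolipid acyltransferases of the agpat and dgat families were even or higher in vegetal samples, with *dgat2.L* ahead. *dgat2*, which performs the last step of triglyceride synthesis, read 471.2, 370.6 and 364.9 in animal samples, against 1350.4, 1307 and 1408 in vegetal samples. The 3.39-fold vegetal excess (2.93 to 3.92, adjusted p by limma = 1.37e-09, rank 162) was again free of overlap. *dgat1.L*, an unrelated enzyme for the same step, was dim, at 5.3, 11.8 and 13.1 in animal samples, against 13.6, 14.5 and 20.7 in vegetal samples, and did not pass (log2 difference -0.77, adjusted p = 0.106), though it did under quantile normalization (0.0404) and median centring (0.034). Lysophosphatidic acid acyltransferases of the agpat family, which act earlier on the same path, differed little. *agpat3.S* read 188.1, 182.6 and 177.0 in animal samples, against 259.3, 226.4 and 221.1 in vegetal samples, 1.29-fold higher in vegetal samples (adjusted p = 0.0102, and 0.658 under scaling to the spiked controls). *agpat3.L* (log2 difference -0.48, adjusted p = 0.0828), *agpat4.S* (-0.17, 0.157) and *agpat1.L* (0.18, 0.219) did not pass. Under quantile normalization *agpat3.L* passed (adjusted p = 0.0129), and under median centring *agpat3.L* (0.00905) and *agpat4.S* (0.00132) did, all toward the vegetal side. Probe set 3 of *agpat1.L* was 2.04-fold higher in animal samples (adjusted p = 0.000541) while its other 3 did not pass, so this gene's value depends on the probe set taken.

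**Figure D3:**
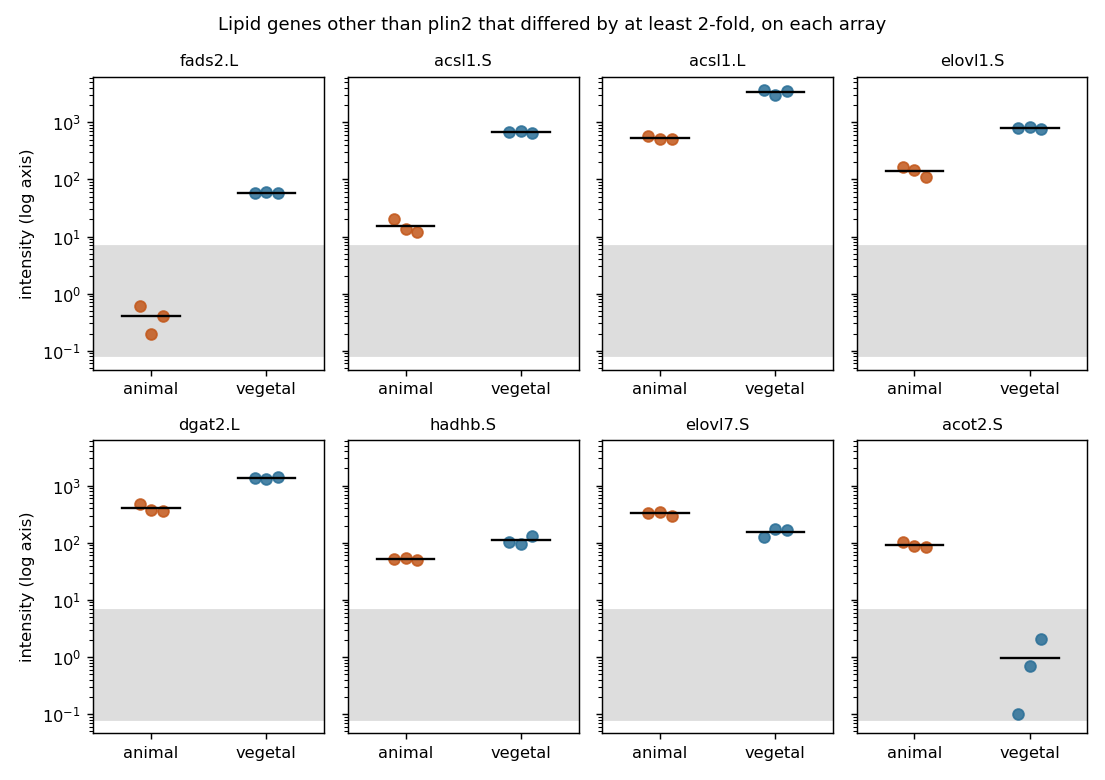
Intensity (log axis) on each of 3 animal and 3 vegetal arrays of the lipid genes other than *plin2* that differed by 2-fold or more; the grey band reaches up to the brightest unspiked control probe set on any array (6.7). *fads2.L* in animal samples and *acot2.S* in vegetal samples lie inside the band, and *acsl1.S* drops to between 11.9 and 20.4 in animal samples, against 652.1 to 700.6 in vegetal samples.

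Thioesterases, which release the free fatty acid from its acyl-CoA, made up 4 of the tested genes. Of these, 2 were called toward the animal side and 0 toward the vegetal side. Over all genes tested, the shares called were 27.1% on the animal side and 23.7% on the vegetal side. The animal call of *acot2.S* carries a limit given below, so this direction is a description. *acot2.S*, whose namesake in mammals is a mitochondrial thioesterase, read 102.7, 86.4 and 84.1 in animal samples, against 0.1, 0.7 and 2.1 in vegetal samples. It was at or under the unspiked controls on all vegetal arrays, which gives an animal excess of at least 16.1-fold (adjusted p by limma = 3.26e-09), against 6.30-fold in the fit with an offset of 16. Its vegetal values under 1 were set to 1 before log2, and it reached the test only through the animal group, so its p-value is a description. *acot12.L*, an acetyl-CoA hydrolase of the cytosol, read 199.0, 198.5 and 194.2 in animal samples, against 117.7, 95.4 and 89.7 in vegetal samples, a 1.97-fold animal excess (1.63 to 2.38, adjusted p = 1.66e-05). The differences of *acot13.S* (0.33, adjusted p = 0.162) and *acot9.S* (0.05, adjusted p = 0.749) did not pass. The probe sets of *acot2.S* and *fads2.L* were thus the 2 that read as present at one end and at control level at the other, in opposite directions, and the part of the 3′ to 5′ control ratios in this was not tested.

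Oxidation genes were mixed and, apart from 1, differed by less than 2-fold. *hadhb.S*, the beta subunit of the mitochondrial trifunctional protein, read 51.2, 55.1 and 50.5 in animal samples, against 105.3, 96.2 and 133.1 in vegetal samples, 2.12-fold higher in vegetal samples (1.66 to 2.69, adjusted p by limma = 5.54e-05). Its other probe set leaned the same way (log2 difference -1.16, adjusted p = 0.00855). The alpha subunit *hadha.S* read 38.6, 42.7 and 51.3 in animal samples, against 54.8, 68.6 and 54.6 in vegetal samples. It missed the threshold (-0.43, adjusted p = 0.0713) and passed without animal replicate 3 (-0.54, adjusted p = 0.04999) and under quantile normalization and median centring (0.0144 and 0.00635). *cpt2.S*, which rebuilds acyl-CoA inside the mitochondrion, read 662.6, 634.0 and 608.8 in animal samples, against 1046, 1091 and 1077 in vegetal samples, 1.69-fold higher in vegetal samples (1.51 to 1.89, adjusted p = 9.01e-07). A dimmer probe set of *cpt2.S* showed no such excess (-0.06, adjusted p = 0.815).

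Acyl-CoA dehydrogenases, which open each round of beta-oxidation or act on branched chains from amino acids, stood on both sides. *acad8.L*, which acts in valine breakdown in mammals, read 182.0, 192.1 and 180.1 in animal samples, against 97.6, 120.2 and 87.4 in vegetal samples (a 1.83-fold animal excess, adjusted p by limma = 7.54e-05). *acad10.L* averaged 122.4 ± 9.42 in animal and 69.8 ± 25.3 in vegetal samples (SD, n = 3 each, 1.82-fold, adjusted p = 0.00227, and 0.0619 with no filter), its vegetal values being 54.7, 55.7 and 99.0. *acadsb.L*, which acts in isoleucine breakdown in mammals, read 645.8, 577.3 and 560.6 in animal samples, against 775.9, 753.2 and 711.1 in vegetal samples (1.26-fold higher in vegetal samples, adjusted p = 0.00418, and 0.671 under scaling to the spiked controls). Neither branched-chain enzyme overlapped between groups, and they lay on opposite sides.

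The medium-chain enzyme *acadm.S* read 32.8, 28.9 and 20.8 in animal samples, against 46.5, 43.6 and 39.5 in vegetal samples (1.60-fold higher in vegetal samples, adjusted p by limma = 0.0213). It did not hold without animal replicate 3 (log2 difference -0.49, adjusted p = 0.101), without vegetal replicate 1 (-0.62, adjusted p = 0.0594), under scaling to the spiked controls (0.196) and with no filter (0.0627). *acadm.L* did not pass (-0.23, adjusted p = 0.187), and did so without vegetal replicate 1 (-0.36, adjusted p = 0.0363). The long-chain enzyme *acadl.L* (-0.10, adjusted p = 0.296) and *acad9.S*, which also serves respiratory complex I assembly in mammals (-0.11, 0.537), did not pass, but did so toward the vegetal side under median centring (adjusted p = 0.00186 and 0.0277). *acox2.L*, a peroxisomal oxidase of branched chains and bile acid intermediates in mammals, read 61.5, 71.0 and 65.7 in animal samples, against 34.7, 43.9 and 36.9 in vegetal samples (a 1.72-fold animal excess, adjusted p = 0.00203). *acads.L*, *cpt1al.L* and *cpt1b.L*, the last 2 from the family that starts carnitine-dependent entry into mitochondria, were under the filter, each array at 10 or less. Outside lipid oxidation, *cptp.L* did not pass (0.13, adjusted p = 0.477).

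Homeologs of the same gene could differ in how far their RNA lay toward one end. Both copies were tested for 8 of the genes, and the animal to vegetal difference itself differed between copies for 4 of the 8, against 43.6% of all 1357 pairs fitted with limma on within-array ratios. The median size of the gap was log2 0.44 over the 8 pairs and 0.45 over all pairs. The *acsl1* copies were 7.21-fold apart (log2 2.85, 2.37 to 3.33, adjusted p = 9.63e-05), *acsl1.S* being the more vegetal, and 3.61-fold apart with an offset of 16 (adjusted p = 4.94e-06). The *elovl1* copies were 3.17-fold apart (1.66, 1.25 to 2.08, adjusted p = 0.000489), *elovl1.S* being the more vegetal. In both pairs the copies leaned the same way and differed in size.

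The *elovl7* copies were 1.63-fold apart (log2 -0.71, -1.04 to -0.38, adjusted p = 0.00706), *elovl7.S* being the more animal. The *elovl5* copies were 1.36-fold apart (-0.44, -0.72 to -0.17, adjusted p = 0.02), a call lost on leaving out animal replicate 2 (-0.44, 0.061), animal replicate 3 (-0.40, 0.068), vegetal replicate 1 (-0.43, 0.0551) or vegetal replicate 2 (-0.39, 0.0599). The copies of *acadm* (0.44, -0.16 to 1.05, adjusted p = 0.202) and *agpat3* (-0.11, -0.56 to 0.33, 0.655) did not differ past the threshold, nor did those of *plin2* and *plin3*. Probe sets designed on one copy may bind the other, which was not tested.

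**Figure D4:**
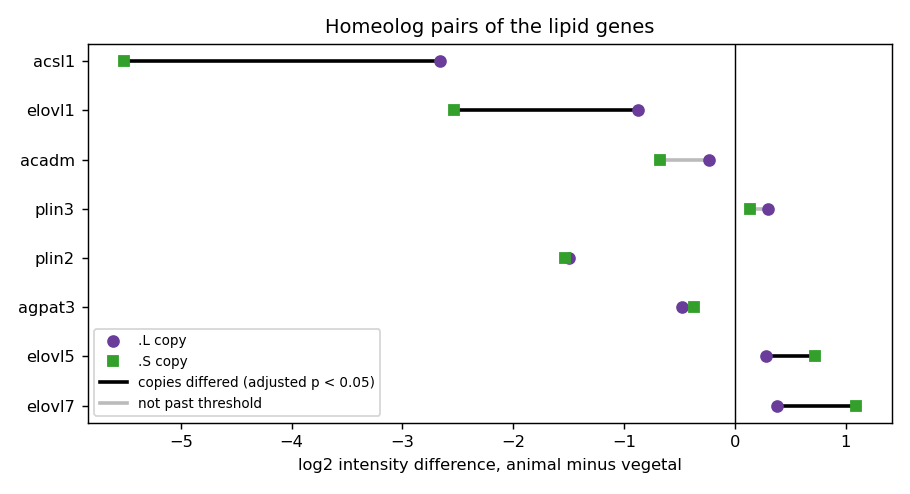
Log2 difference (animal minus vegetal) of the L copy and the S copy for the 8 gene pairs with both copies tested, joined by a line that is black where the copies differed past the threshold and grey otherwise. The *plin2* copies coincide, while the *acsl1* copies lie 2.85 and the *elovl1* copies 1.66 log2 units apart.

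Each list of genes from the same pathways outside the name rule had calls on both sides with the deposited scaling. Animal calls were furthest ahead for the partners of beta-oxidation, given below. Of the lipid storage and lipolysis genes, 5 of 18 tested lay higher at the animal end (27.8%, against 27.1% of all genes tested) and 4 at the vegetal end (22.2%, against 23.7%), with a median log2 difference of 0.04. *soat1.S*, which makes the cholesteryl esters that droplets store, read 246.2, 188.8 and 191.9 in animal samples, against 2543, 2303 and 2654 in vegetal samples, a 12.0-fold vegetal excess (10.3 to 14.0, adjusted p by limma = 1.57e-12). *cidec.S*, from a family that fuses droplets in mammals, read 36.6, 28.9 and 29.5 in animal samples, against 150.4, 135.3 and 127.8 in vegetal samples (4.37-fold higher in vegetal samples, adjusted p = 5.95e-08). That family went both ways. *cidec.L* was 2.17-fold higher in vegetal samples (adjusted p = 6.01e-05) and *cidea.L* 1.63-fold higher in animal samples (adjusted p = 0.0011), while *cidea.S* did not pass (log2 difference -0.04, adjusted p = 0.816). Toward the animal side lay *gpat4.S*, an enzyme of the first acylation of glycerol-3-phosphate, with 39.3, 46.2 and 44.3 in animal samples, against 14.0, 11.2 and 22.7 in vegetal samples (2.83-fold, adjusted p = 0.000345, and 1.87-fold with an offset of 16). Its homeolog *gpat4.L* averaged 432.8 ± 21.2 in animal and 396.8 ± 3.19 in vegetal samples (SD, n = 3 each) and did not pass (log2 difference 0.12, adjusted p = 0.240), and the difference between the copies did (-1.38, -2.03 to -0.72, adjusted p = 0.00729). *lipe.L*, the hormone-sensitive lipase, was 2.39-fold higher in animal samples (adjusted p = 0.00619, and 0.0756 with no filter), and 1.57-fold with an offset of 16. Its other probe set did not pass (log2 difference 0.16, adjusted p = 0.684).

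Of the partners of beta-oxidation, 10 of 23 tested were higher in animal samples (43.5%, against 27.1% of all genes tested) and 3 in vegetal samples (13%, against 23.7%), with a median log2 difference of 0.21. Median centring gave 5 in animal and 7 in vegetal samples, where all genes gave 1193 animal and 3284 vegetal calls. Scaling to the spiked controls gave 11 in animal and 0 in vegetal samples, where all genes gave 2785 animal and 824 vegetal calls. *phyh.S*, a peroxisomal enzyme of phytanic acid oxidation, read 114.0, 102.4 and 86.6 in animal samples, against 33.7, 43.0 and 24.4 in vegetal samples (3.06-fold, adjusted p by limma = 1.53e-05). *slc25a20.S*, the carrier that brings acylcarnitine into the mitochondrion, read 159.6, 134.6 and 129.3 in animal samples, against 49.1, 80.0 and 47.2 in vegetal samples (2.46-fold, adjusted p = 4.78e-05). *crat.S*, carnitine acetyltransferase, and *acaa2.L*, a thiolase, were 2.07-fold and 2.03-fold higher in animal samples (adjusted p = 4.99e-05 and 3.22e-05). The carrier's other copy, *slc25a20.L*, read 39.9, 17.3 and 23.3 in animal samples, against 39.4, 30.2 and 29.9 in vegetal samples, and did not pass (log2 difference -0.38, adjusted p = 0.288). The difference between the copies passed (-1.68, -2.49 to -0.88, adjusted p = 0.00755), so the animal excess was measured for the S copy and not for the L copy.

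Genes of the fatty acid synthesis list mostly did not differ past the threshold. Of 11 tested, 2 were higher in animal samples (18.2%, against 27.1% of all genes tested) and 1 in vegetal samples (9.09%, against 23.7%). The 11 were copies of *acly*, *acsf3*, *cbr4*, *hacd2*, *hsd17b12*, *mcat*, *mecr*, *scd* and *tecr*. Neither fatty acid synthase nor acetyl-CoA carboxylase was among them. *cbr4.L* (1.28-fold) and *acly.L*, the source of cytosolic acetyl-CoA (1.27-fold), were slightly higher in animal samples. Both calls turned on single arrays: without each of 5 arrays in turn the adjusted p of *acly.L* was above the threshold (0.0665, 0.0596 and 0.0906 for animal arrays 1 to 3, 0.0567 and 0.0925 for vegetal arrays 1 and 3), and that of *cbr4.L* was so without animal replicate 2 (0.0671), vegetal replicate 2 (0.0569) or vegetal replicate 3 (0.0587). Median centring ended both calls as well (adjusted p = 0.637 for *acly.L* and 0.566 for *cbr4.L*), as did quantile normalization for *acly.L* (0.142) and, for *cbr4.L*, no filter (0.0875) and no mean-variance trend (0.0692). *acsf3.S*, the malonyl-CoA synthetase of mitochondria in mammals, read 8.8, 4.2 and 3.7 in animal samples, against 18.9, 15.3 and 14.3 in vegetal samples, a vegetal excess of at least 2.54-fold, with 1 of 3 animal arrays above the controls. It reached the test only through the vegetal group, so it and the vegetal count of 1 that it makes up are descriptions.

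Of the uptake and binding genes, 2 of 6 tested lay higher at the animal end (33.3%, against 27.1% of all genes tested) and 1 at the vegetal end (16.7%, against 23.7%). *slc27a2.L*, a very-long-chain acyl-CoA synthetase and transporter, read 298.1, 270.5 and 233.0 in animal samples, against 59.0, 53.0 and 23.8 in vegetal samples (6.32-fold, 4.32 to 9.25, adjusted p by limma = 6.2e-07). Averaging it with its other probe sets, which were under the filter, gave 1.76-fold. It lay opposite to *acsl1* although both activate fatty acids. *acbd3.L* was 0.42 higher on the log2 scale in animal samples (adjusted p = 0.0226), a call lost without animal replicate 2 (0.0866), animal replicate 3 (0.0641) or vegetal replicate 2 (0.0827) and under quantile normalization (0.139) or median centring (0.419). Its further tested probe sets gave 0.67 (adjusted p by limma = 0.00436), 0.54 (0.0251), 0.41 (0.422) and -0.19 (0.679). *fabp4.L*, a fatty acid binding protein, read 19.1, 23.2 and 21.2 in animal samples, against 43.7, 50.7 and 55.1 in vegetal samples (2.35-fold higher in vegetal samples, adjusted p = 0.000202).

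Among the regulators, 4 of 15 tested lay higher at the animal end (26.7%, against 27.1% of all genes tested) and 3 at the vegetal end (20%, against 23.7%). *srebf2.L*, a transcription factor of sterol synthesis, read 1309.8, 1352 and 1467 in animal samples, against 647.2, 664.6 and 643.9 in vegetal samples (2.11-fold, adjusted p by limma = 1.87e-08). *insig2.L*, which helps to hold that factor's precursor in the endoplasmic reticulum, was lower in animal samples (log2 difference -0.93, adjusted p = 0.0002). The copies of *ppara*, a nuclear receptor that drives fatty acid oxidation genes, lay on opposite sides. *ppara.L* read 1766, 1784 and 2099 in animal samples, against 1316, 1062 and 1239 in vegetal samples (a 1.56-fold animal excess, adjusted p = 3.85e-05). *ppara.S* read 1178, 1111 and 1096 in animal samples, against 1527, 1657 and 2137 in vegetal samples (1.56-fold higher in vegetal samples, adjusted p = 0.000116), and the gap between the copies was log2 1.28 (0.86 to 1.71, adjusted p = 0.00158). A further probe set of *ppara.L* did not pass (0.26, adjusted p = 0.428). Of 6 peroxisome biogenesis genes tested, 1 was higher in animal samples (16.7%, against 27.1% of all genes tested) and 1 in vegetal samples (16.7%, against 23.7%). *pex19.S*, which delivers membrane proteins to the peroxisome, was higher in animal samples (0.77, adjusted p by limma = 0.00986). This call was lost without animal replicate 2 (0.0771), under median centring (0.0672) and with no filter (0.0745). Its other copy, *pex19.L*, did not pass (-0.03, adjusted p = 0.895), and the difference between the copies did (-0.80, adjusted p = 0.0208). *pex26.L* was higher in vegetal samples (-0.33, adjusted p = 0.01, and 0.741 under scaling to the spiked controls).

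**Figure D5:**
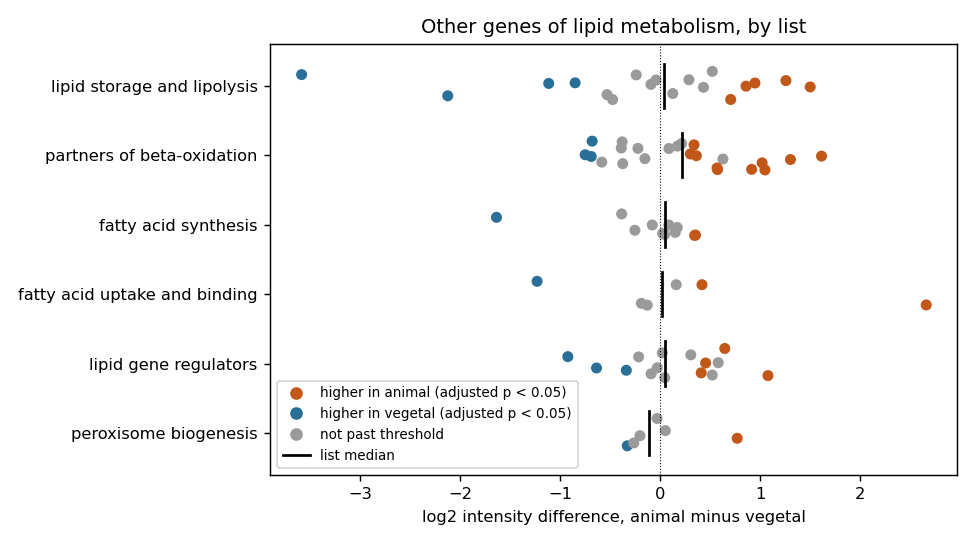
Log2 difference (animal minus vegetal) of every tested gene of the 6 pathway lists, 1 point per gene, with a bar at each list's median. The medians lie between -0.12 and 0.21, and the widest points are *soat1.S* on the vegetal side of the storage list and *slc27a2.L* on the animal side of the uptake list.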

How the data were processed

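The 6 one-colour arrays each took biotin-labelled, amplified total RNA, per the labels' protocols. The deposited values are 1 linear intensity per probe set and array, which the authors made with GCOS, per the submitters' processing notes; the GCOS version is not given in the labels. A 2% trimmed mean of 150.03 to 150.04 on every array shows that the authors' scaling was already in the values, which were used as deposited. Values under 1 were set to 1 before log2. The 96 control probe sets and the 40% of the other 32539 with the lowest mean (under 6.94) were left out, which left 19523. Animal and vegetal arrays were compared with limma 3.58.1 in R 4.3.3 (lmFit, eBayes with a mean-variance trend, no block, two-sided), adjusted by Benjamini-Hochberg over all probe sets tested. The number of arrays limits the precision. Because limma pools part of the spread over the probe sets fitted, the size of an adjusted p depends on the settings. That of *acsl1.S* by limma was 4.67e-12 in the main fit and 0.000148 with no filter, at the same difference. The brightest probe set stood for a gene, except that every *plin2* probe set is given. Homeolog pairs were tested by limma on within-array log2 ratios. Fold bounds use, per array, the higher of the gene's value and the brightest of 59 unspiked controls (4.1 to 6.7).

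Names came from the platform annotation, which can be old, with 15384 IDs matched to RefSeq's Xenopus_laevis_v10.1 table. Of 32539 probe sets, 15495 had 1 symbol, 279 several and 16765 none here. The labels name no genome build, so no positions are given. The genes and lists were chosen with earlier results of these data known. The naming rule took all *plin2* probe sets, members at 2-fold or more, each family's brightest member, homeolog pairs past the threshold and up to 4 genes per list; other members are given so that each is accounted for. Same-numbered replicates did not deviate together (correlations -0.0229, 0.00628 and -0.0135). The alternatives were other scalings, filters, an offset, no trend, a replicate block, other probe set rules and leaving out each array. The fit was tested on simulated data.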

Additional observations from a re-analysis of the deposited data

How the results depend on the processing

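Of the 23 lipid gene calls, 15 held under every alternative in which they were fitted, 7 of them animal and 8 vegetal. Those 8 were the genes at 2-fold or more with the deposited scaling. The share of all called genes that held is not given, so these counts are descriptions. The vegetal count at 2-fold or more was 7 with an offset of 16, on averaging all probe sets of a gene, and without vegetal replicate 3. It was also 7 with the stricter filter, which tested 30 of the genes. Over the alternatives the log2 difference of *plin2.L* ran from -1.77 to -0.94, by its brightest probe set or the mean of its probe sets. Taken alone with the deposited scaling, its probe set 2 stood at -1.85 and its probe set 3 at 0.53. The 15 include *acot2.S* and *fads2.L*, which reached the test only through the group in which they were high. The stricter filter left both out, so that their calls held is a description. With a replicate block the counts stayed at 10 animal and 13 vegetal genes, and the block changed no call among them. The labels do not say whether same-numbered replicates share embryos. Median centring, which moved the median log2 difference of all probe sets to -0.15, against 0.12 as deposited, gave 20 vegetal lipid genes and turned *acot9.S* (-0.22), *agpat1.L* (-0.088), *cptp.L* (-0.14) and *plin3.S* (-0.13). The calls over all genes shifted as well, from 2177 animal and 1905 vegetal as deposited. Median centring called 1193 animal and 3284 vegetal genes, and quantile normalization 2058 animal and 2179 vegetal. Scaling to the spiked controls called 2785 animal and 824 vegetal genes, so the list counts below are descriptions. Median centring gave 0 animal and 3 vegetal genes for fatty acid synthesis, 1 animal and 3 vegetal for uptake, and 2 animal and 5 vegetal for regulators. It also gave 5 animal and 7 vegetal for the partners of beta-oxidation, 0 animal and 3 vegetal for peroxisome biogenesis, and 7 vegetal for storage. Quantile normalization (median 0.03) turned *acot9.S* (-0.0068) and *cptp.L* (-0.0104) and gave 2 vegetal synthesis, 1 animal uptake, 6 vegetal partner and 3 vegetal peroxisome genes. Scaling to the spiked controls (median 0.36) turned *acad9.S* (0.13), *acadl.L* (0.14), *acadm.L* (0.0096) and *agpat4.S* (0.070) and gave 7 animal regulators, 0 vegetal partners and 0 vegetal peroxisome genes. Averaging all probe sets of a gene turned *agpat4.S* (0.18). With no filter, synthesis had 1 and peroxisome biogenesis 0 animal genes, and with no trend synthesis had 1. The stricter filter left 0 vegetal synthesis and 0 vegetal uptake genes and 3 animal storage genes. Leaving out single arrays gave 0 to 1 animal and 1 to 2 vegetal synthesis genes, 1 to 2 animal uptake genes, 0 to 1 animal and 1 to 2 vegetal peroxisome genes, 3 to 5 vegetal partners, and -0.039 to 0.14 for *acot9.S*. The reversed values belong to genes that did not pass the test. Counts of the pathway lists were not run under the probe set rules. The cause of these shifts was not tested. Genes near the unspiked controls, such as *dgat1.L*, carry little signal over background.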
